A study of Homo sapiens with 6 samples.

Results

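The TNF ligand and receptor superfamily was examined in TOV21G, a cell line of ovarian clear cell carcinoma. Its members were taken by name: every gene whose symbol starts with TNFSF or TNFRSF, plus LTBR, CD40 and CD70. TNF itself, which the rule also names, was not analysed here. The rule took 34 of the 16910 rows of the expression table, which are 33 genes and the readthrough locus TNFSF12-TNFSF13. Of these, 24 rows had a mean of at least 0.5 TPM (a level corrected for transcript length and sequencing depth) over the 6 libraries and are described with their values. They are the readthrough locus and 23 genes, namely 6 ligands, 5 receptors with a death domain, 4 decoy receptors and 8 receptors that bind TRAF adaptors.

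The study asked what GYS1, the muscle-type glycogen synthase, and p53 do in these cells. RNA sequencing was done on 3 groups of 2 libraries: siGYS1, sip53 and NC. From their names, siGYS1 and sip53 are TOV21G cells given an siRNA against GYS1 or p53, and NC is read as TOV21G given a control siRNA. All 6 libraries come from this single cell line, and the siRNA sequences, the time after transfection and the origin of the replicates were not given in the sources used here. A p-value therefore measures only the spread between these libraries, which may be technical.

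Ligands of the family are trimers on the cell surface or shed from it, and each binds one or a few receptors. Receptors with a death domain can recruit FADD and caspase-8 and start apoptosis, while most of the others bind TRAF proteins and activate NF-kB and MAP kinases. Decoy receptors bind ligand without passing on a death signal. On carcinoma cells the family is best known for the TRAIL system (the ligand TNFSF10, the death receptors TNFRSF10A and TNFRSF10B and the decoys TNFRSF10C, TNFRSF10D and TNFRSF11B), and several other members are better known from lymphocytes, where they act as costimulators.

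Each library held between 17425000 and 18097337 counted reads. GYS1 had 2.33 and 2.15 TPM in the siGYS1 libraries, 39.3 and 40.7 TPM in the sip53 libraries and 37.6 and 33.4 TPM in the NC libraries, so the siGYS1 label held in both libraries (log2 fold change against NC -3.99, SE 0.11). The transcript targeted in sip53 was not analysed here, and that label was not checked. Of the line's markers PAX8, KRT8 and KRT18 were well expressed, whereas NAPSA, a marker of this carcinoma type, stayed low. Of 12 leukocyte markers 7 were analysed, and they summed to 7.83 to 8.77 TPM in siGYS1, 9.42 to 10.9 TPM in sip53 and 6.87 to 7.54 TPM in NC. The 4 analysed of 6 endothelial markers summed to 0.43 to 0.58 TPM in siGYS1, 1.20 to 1.99 TPM in sip53 and 0.42 to 0.62 TPM in NC, and the 7 fibroblast markers to 186 to 214 TPM in siGYS1, 119.5 to 120.6 TPM in sip53 and 217 to 234 TPM in NC. No analysed marker was at 0 in every library. Of these markers CD68 and ITGAM were higher in sip53 than in NC by edgeR. PECAM1 had 0.68 and 0.36 TPM in sip53 and 0.12 and 0.12 TPM in NC. CDH5 had 1.29 and 0.84 TPM in sip53 and 0.49 and 0.29 TPM in NC. Both were close to the lower limit and are given as a description. Of the 3 fibroblast markers tested, COL1A1 and COL1A2 were lower in sip53 than in NC. DCN was called higher, although its TPM overlapped (5.78 and 4.05 in sip53, 0.41 and 8.55 in NC). The highest fibroblast marker was COL1A2 (mean of 163 TPM over the 6 libraries), while LUM, PDGFRB, THY1 and FAP each had a mean below 0.5 TPM. The highest leukocyte marker was CD68 (mean of 6.34 TPM). All 6 libraries come from a single cell line, and the part of other cell types in the results below was not tested. In such bulk samples fewer cells of a type and less RNA per cell cannot be told apart. Libraries also differed in how levels went with transcript length: over 11171 genes, the Spearman correlation of a library's deviation with exon length was 0.41 and -0.08 in siGYS1, -0.02 and -0.07 in sip53 and 0.04 and -0.29 in NC.

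Members ranged from TNFRSF12A, the receptor of the ligand TWEAK, at a mean of 257 TPM over the 6 libraries, to TNFRSF4 at 0.682 TPM. All 33 genes together summed to 952.6 and 917 TPM in the siGYS1 libraries, 1139 and 1146 TPM in the sip53 libraries and 869.1 and 809.8 TPM in the NC libraries. Both knockdowns lay above NC in this sum, and sip53 lay above siGYS1. TNFRSF12A made up 25.5% and 28.3% of it in siGYS1, 24.2% and 25.8% in sip53 and 26.1% and 29.8% in NC, where siGYS1 overlapped both other groups and sip53 lay just below NC. TNFRSF10B made up 14.6% and 13.3% in siGYS1, 29.7% and 27.5% in sip53 and 14.5% and 13.0% in NC, with both sip53 libraries well above the others. Just inside the threshold of 0.5 TPM lay TNFRSF4 (0.682 TPM), the readthrough locus (0.967 TPM) and TNFSF15 (1.42 TPM), the last of them only through the sip53 libraries; just outside lay TNFRSF11A (0.44 TPM), TNFRSF17 (0.332 TPM) and TNFSF13B (0.303 TPM).

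**Figure D1:**
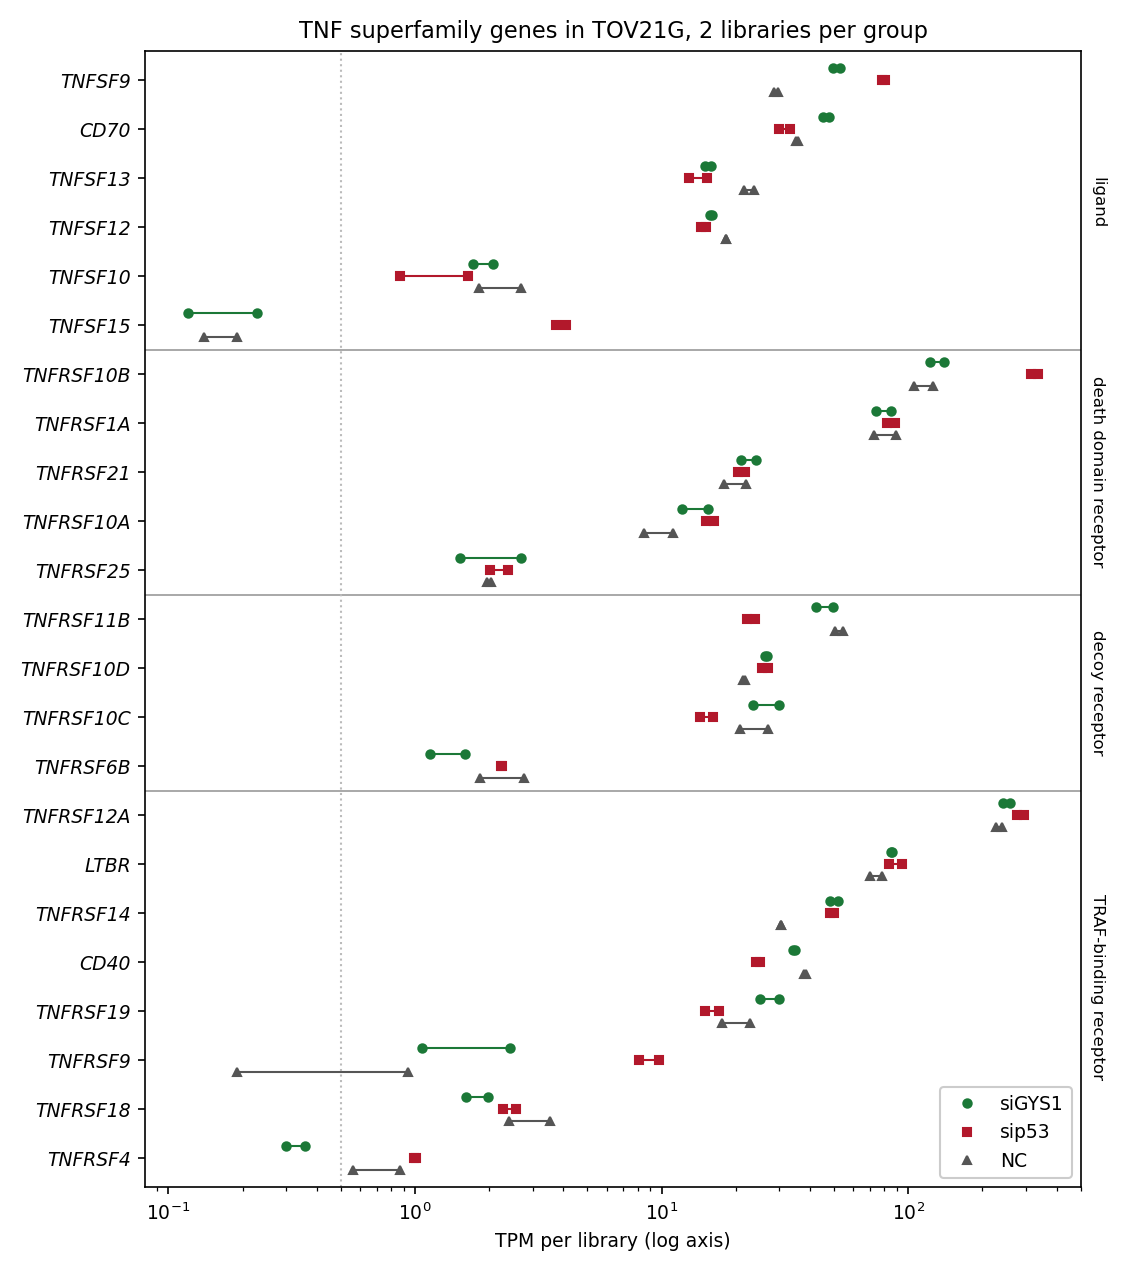
TPM of the 23 genes of the TNF superfamily with a mean of at least 0.5 TPM, on a log axis, with 1 symbol per library and a line joining both libraries of a group; the dotted line is the 0.5 TPM threshold. TNFSF15, TNFRSF9, TNFRSF10B and TNFSF9 stand furthest to the right of NC in sip53, and TNFRSF12A and TNFRSF10B are the most abundant members.

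Knockdown of GYS1 was tested against NC, knockdown of p53 against NC, and the knockdowns directly against each other. A gene was called changed when the p-value of edgeR's quasi-likelihood test, adjusted by Benjamini-Hochberg over all 13235 genes tested, was below 0.05. In siGYS1 against NC, 7 of the 23 members rose and 0 fell by this test, where 19.7% of all tested genes were called, 10.4% as higher and 9.24% as lower. The members that rose were TNFSF9, CD70, TNFRSF10A, TNFRSF10D, TNFRSF14, TNFRSF19 and TNFRSF9. At an unadjusted p below 0.05 there were 8 higher and 3 lower members; DESeq2 called 5 higher and 0 lower, and limma on log2(TPM + 1) called 3 higher and 1 lower, TNFSF13. The count of 7 is not firm: it was 2 without NC replicate 2 and 4 without either sip53 replicate, which enter only through the shared estimate of spread.

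In sip53 against NC, 9 of 23 members rose and 4 fell, against a background of 49.9% of all tested genes called, 23.4% higher and 26.5% lower. These counts include TNFSF15, which reached 0.5 TPM only through sip53 and so was bound to differ there, and TNFRSF4, which reached the test only through sip53. Without this pair, 8 of 21 members rose and 4 fell. LTBR, TNFRSF10A, TNFRSF10B, TNFRSF10D, TNFRSF12A, TNFRSF14, TNFRSF9, TNFSF15 and TNFSF9 rose, and CD40, TNFRSF10C, TNFRSF11B and TNFSF10 fell. In siGYS1 against sip53, 6 members were higher in siGYS1 (CD40, CD70, TNFRSF10C, TNFRSF11B, TNFRSF19 and TNFSF10) and 5 were lower (TNFRSF10B, TNFRSF4, TNFRSF9, TNFSF15 and TNFSF9), where 43.4% of all genes were called, 22.5% higher and 20.9% lower; without the same pair, 6 of 21 were higher and 3 lower. The median log2 fold change over the members was 0.11 in siGYS1 against NC, 0.17 in sip53 against NC and -0.13 in siGYS1 against sip53, beside -0.01, -0.03 and 0.01 over all tested genes; without TNFSF15 and TNFRSF4 the members' medians were 0.17, 0.11 and -0.06. The members' total counts in both comparisons with sip53 lie near these backgrounds. By direction, more members rose and fewer fell in sip53 against NC than the shares of all genes, which was not tested. The counts are not a result about the family. TNFSF9, TNFRSF9, TNFRSF10A, TNFRSF10D and TNFRSF14 rose in both knockdowns, which share the NC libraries. The share of all tested genes that rose in both was not counted. Of these members only TNFSF9 and TNFRSF14 passed in siGYS1 against NC in every other setting of the analysis. In none of the 3 comparisons did 7 members pass (TNFRSF18, TNFRSF1A, TNFRSF21, TNFRSF25, TNFRSF6B, TNFSF12 and TNFSF13).

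**Figure D2:**
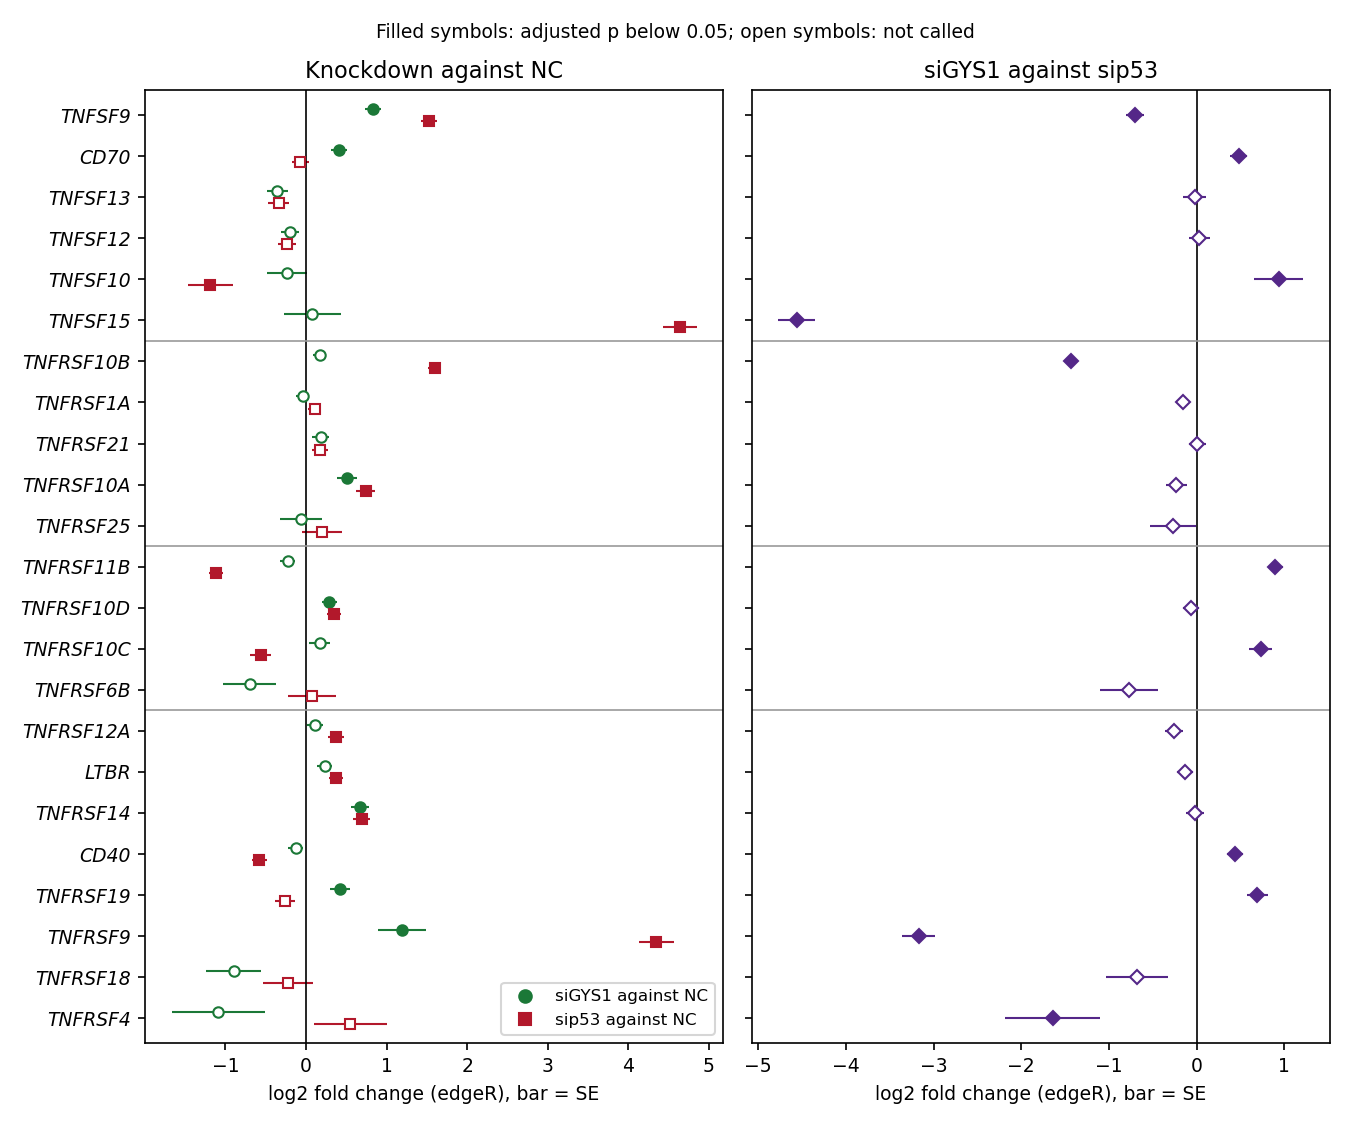
Log2 fold changes of the same 23 genes from edgeR, with bars of 1 SE: siGYS1 and sip53 against NC on the left, siGYS1 against sip53 on the right. Filled symbols passed an adjusted p below 0.05, and the longest excursions are those of TNFSF15 (4.64) and TNFRSF9 (4.35) in sip53 against NC.

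Among the ligands, TNFSF9 rose in both knockdowns, TNFSF15 had a mean of 3.92 TPM in sip53, against 0.165 TPM in NC, CD70 rose in siGYS1 and TNFSF10 fell in sip53. TNFSF9 (ENSG00000125657, chr19:6530999-6535928, GRCh38), the ligand of TNFRSF9 and a costimulator of T cells, had 49.8 and 53.02 TPM in siGYS1, 80.4 and 78.3 TPM in sip53 and 29.6 and 28.45 TPM in NC. The 3 groups did not overlap, with sip53 highest and NC lowest. The log2 fold change was 0.83 (SE 0.10, adjusted p = 0.000727, 1.77-fold) in siGYS1 against NC and 1.53 (SE 0.10, adjusted p = 2.88e-06, 2.88-fold) in sip53 against NC, and siGYS1 lay below sip53 by a log2 fold change of -0.70 (SE 0.10, adjusted p = 0.000311). Across 14 other settings the value in siGYS1 against NC stayed between 0.74 and 0.92 and passed in each.

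TNFSF15 (ENSG00000181634, chr9:114784635-114806126, GRCh38), or TL1A, is known from endothelial cells and activated immune cells and binds the death receptor TNFRSF25. Its reads numbered 18 and 11 in the siGYS1 libraries, 355 and 326 in the sip53 libraries and 16 and 13 in the NC libraries, which is 0.23 and 0.12 TPM in siGYS1, 4.09 and 3.74 TPM in sip53 and 0.19 and 0.14 TPM in NC. The siGYS1 and NC libraries lay close to the lower limit of detection and overlapped, and both sip53 libraries stood far above them. The fitted difference was 24.9-fold in sip53 against NC (log2 fold change 4.64, SE 0.21) and -4.56 on the log2 scale in siGYS1 against sip53 (SE 0.21). Both are given as a description, with no test, since TNFSF15 is among the members at 0.5 TPM only through the sip53 libraries. On the log2(TPM + 1) scale, which understates the change of low genes, limma gave 2.08 in sip53 against NC. In siGYS1 against NC the log2 fold change was 0.08 (SE 0.35, adjusted p = 0.902), and it was -0.07 without NC replicate 2 and -0.34 without siGYS1 replicate 1. The receptor TNFRSF25 had 2.69 and 1.53 TPM in siGYS1, 2.38 and 2.01 TPM in sip53 and 2.03 and 1.96 TPM in NC, which overlap, and it passed in no comparison.

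CD70 (ENSG00000125726, chr19:6583183-6604103, GRCh38), the ligand of CD27, lies in the same stretch of chromosome 19 as TNFSF9. It had 47.7 and 45.1 TPM in siGYS1, 33.3 and 29.9 TPM in sip53 and 35.7 and 35.1 TPM in NC. The siGYS1 libraries were the highest and overlapped neither other group. CD70 rose in siGYS1 against NC by a log2 fold change of 0.41 (SE 0.10, adjusted p = 0.0217), a call that was lost without NC replicate 1 (log2 0.38, adjusted p = 0.105), without NC replicate 2 (log2 0.45, adjusted p = 0.0931) and under DESeq2 (log2 0.43, adjusted p = 0.0636). It was higher in siGYS1 than in sip53 by 0.48 (SE 0.10, adjusted p = 0.00428), or 0.42 without sip53 replicate 2 (adjusted p = 0.0561). The value in sip53 against NC was -0.07 (SE 0.11, adjusted p = 0.596).

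TNFSF10 (ENSG00000121858, chr3:172505508-172523507, GRCh38), or TRAIL, was scarce, with 39 and 37 reads in siGYS1, 18 and 21 reads in sip53 and 55 and 40 reads in NC. The sip53 libraries were the lowest in reads, while the siGYS1 and NC libraries lay close together. In TPM the picture was less clear, with 2.08 and 1.72 in siGYS1, 0.87 and 1.64 in sip53 and 2.70 and 1.82 in NC, because the authors' TPM per read of this gene differed by 1.71 times between libraries. TNFSF10 fell in sip53 against NC (log2 fold change -1.19, SE 0.28, adjusted p = 0.00553) and was higher in siGYS1 than in sip53 (0.94, SE 0.28, adjusted p = 0.0233). The first call was lost without NC replicate 1 (log2 -0.94, adjusted p = 0.0502) and on log2(TPM + 1) with limma (log2 -0.54, adjusted p = 0.0663). The other call was lost without siGYS1 replicate 1 (log2 0.86, adjusted p = 0.0666), sip53 replicate 1 (log2 0.84, adjusted p = 0.127) or sip53 replicate 2 (log2 1.05, adjusted p = 0.0751). In siGYS1 against NC the value was -0.24 (SE 0.25, adjusted p = 0.514), and 0.01 without NC replicate 1.

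TNFSF12 (TWEAK) and TNFSF13 (APRIL, a survival factor of plasma cells) are neighbours on chromosome 17 and share exons with the readthrough locus TNFSF12-TNFSF13, so reads could be split among the 3 rows. TNFSF13 had 14.95 and 15.9 TPM in siGYS1, 12.9 and 15.35 TPM in sip53 and 23.75 and 21.6 TPM in NC. Both knockdowns lay below NC without overlap, but the log2 fold changes of -0.36 (SE 0.13, adjusted p = 0.0774) in siGYS1 and -0.34 (SE 0.13, adjusted p = 0.0526) in sip53 did not pass. With limma on log2(TPM + 1) both passed (log2 -0.53, adjusted p = 0.0426, and log2 -0.65, adjusted p = 0.00528), and they passed on counts without siGYS1 replicate 2 (log2 -0.46, adjusted p = 0.0244, and log2 -0.31, adjusted p = 0.0306) and, for sip53, without siGYS1 replicate 1 (log2 -0.31, adjusted p = 0.0288). TNFSF12 had 15.7 and 16.0 TPM in siGYS1, 15.1 and 14.4 TPM in sip53 and 18.2 and 18.3 TPM in NC, again with NC highest and no call. The readthrough row was assigned 29.2 and 11.2 reads in siGYS1, 19.9 and 13.9 reads in sip53 and 0 and 49.2 reads in NC, a spread within NC as wide as the whole range. Summed over the 3 rows, the locus had 483 and 537 reads in siGYS1, 482 and 516 reads in sip53 and 617 and 689 reads in NC. The sum did not depend on how reads were split, and both knockdowns lay below NC in it; no test was made of the sum.

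TNFRSF9 and TNFRSF14, receptors that bind TRAF proteins, rose in both knockdowns like the ligand TNFSF9. TNFRSF9 (ENSG00000049249, chr1:7915894-7943165, GRCh38), the receptor of TNFSF9 and a marker of activated T cells, had 38 and 27 reads in siGYS1, 293 and 286 reads in sip53 and 18 and 12 reads in NC. The groups did not overlap, and both sip53 libraries stood far above all others. Reads are used because the authors' TPM per read of this gene differed by 3.87 times between libraries; its TPM were 2.42 and 1.07 in siGYS1, 9.81 and 8.12 in sip53 and 0.94 and 0.19 in NC. TNFRSF9 rose 20.4-fold in sip53 against NC (log2 fold change 4.35, SE 0.22, adjusted p = 8.74e-07) and 2.28-fold in siGYS1 against NC (1.19, SE 0.30, adjusted p = 0.0238), and siGYS1 lay below sip53 (-3.17, SE 0.19, adjusted p = 2.99e-06). On log2(TPM + 1), limma gave 2.71 in sip53 against NC and 0.81 in siGYS1 against NC. The call in siGYS1 against NC was lost without NC replicate 2 (log2 0.92, adjusted p = 0.166), without siGYS1 replicate 1 (log2 0.90, adjusted p = 0.11) and without either sip53 replicate (log2 1.19, adjusted p = 0.0531 and 0.053).

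TNFRSF14 (ENSG00000157873, chr1:2555639-2565382, GRCh38), the herpesvirus entry mediator and receptor of LIGHT, had 48.1 and 52.1 TPM in siGYS1, 49.9 and 48.1 TPM in sip53 and 30.5 and 30.4 TPM in NC. Both knockdowns overlapped each other and lay well above NC. TNFRSF14 rose 1.59-fold in siGYS1 against NC (log2 fold change 0.67, SE 0.11, adjusted p = 0.00305) and 1.61-fold in sip53 against NC (0.69, SE 0.11, adjusted p = 0.000553). The knockdowns differed from each other by -0.02 (95% interval -0.26 to 0.21, adjusted p = 0.874). Both calls against NC held in all 14 other settings, with values of 0.55 to 0.80 in siGYS1. An antisense gene, TNFRSF14-AS1, covers 831 exonic bases of TNFRSF14, and whether counting used strand was not given in the sources used here.

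**Figure D3:**
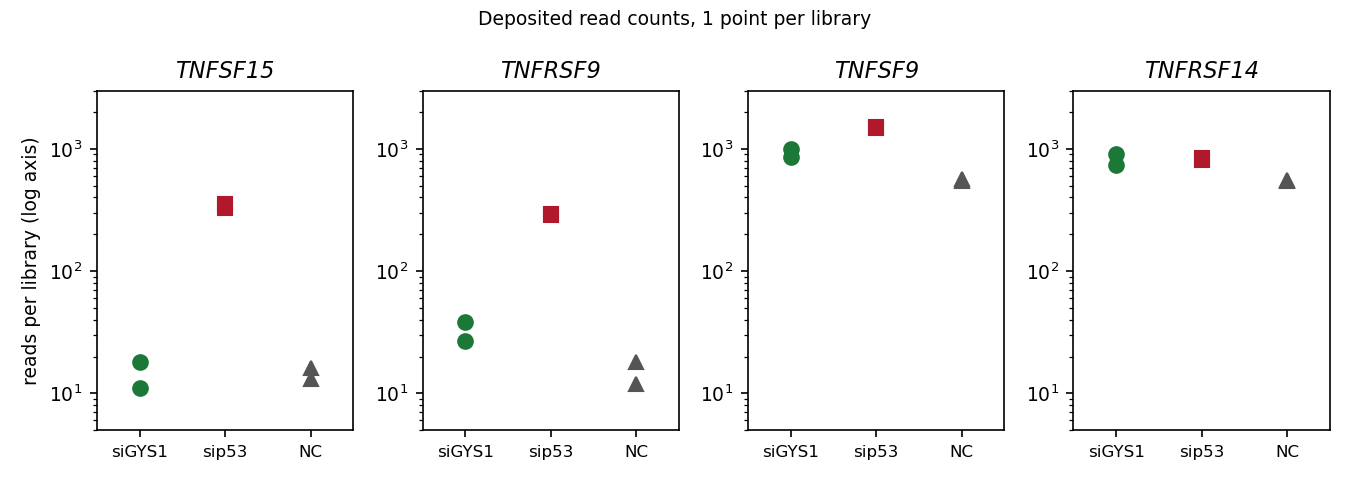
Reads per library of TNFSF15, TNFRSF9, TNFSF9 and TNFRSF14 on shared log axes, with 1 symbol per library. TNFSF15 and TNFRSF9 had 286 to 355 reads in sip53 and at most 38 in any other library, while TNFRSF14 stood as high in siGYS1 as in sip53.

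The promoter windows of these 4 genes are shown because TNFSF9, TNFRSF9 and TNFRSF14 rose in both knockdowns and TNFSF15 is the member seen mainly in sip53; matches to motifs of the factors the family is known to be controlled by were looked up in them. The windows are from RefSeq (GRCh38.p14), run from 250 bases before to 50 bases after the annotated start, and are written 5′ to 3′ on the gene's strand, with matches on either strand in capitals. They are chr19:6530776-6531075 (+) for TNFSF9, chr9:114792481-114792780 (-) for TNFSF15, chr1:7940790-7941089 (-) for TNFRSF9 and chr1:2556121-2556420 (+) for TNFRSF14. The windows of TNFSF15, TNFRSF9 and TNFRSF14 lie wholly inside the genes' GENCODE 29 bounds, at an internal start. Sequence before the outermost GENCODE start of these genes was not searched.
TNFSF9 promoter: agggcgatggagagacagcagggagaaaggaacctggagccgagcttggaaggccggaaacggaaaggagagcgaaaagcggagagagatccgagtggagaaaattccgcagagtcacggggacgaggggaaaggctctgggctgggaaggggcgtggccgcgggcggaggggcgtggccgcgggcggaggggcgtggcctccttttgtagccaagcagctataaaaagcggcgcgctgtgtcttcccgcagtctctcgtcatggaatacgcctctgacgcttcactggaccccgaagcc
TNFSF15 promoter: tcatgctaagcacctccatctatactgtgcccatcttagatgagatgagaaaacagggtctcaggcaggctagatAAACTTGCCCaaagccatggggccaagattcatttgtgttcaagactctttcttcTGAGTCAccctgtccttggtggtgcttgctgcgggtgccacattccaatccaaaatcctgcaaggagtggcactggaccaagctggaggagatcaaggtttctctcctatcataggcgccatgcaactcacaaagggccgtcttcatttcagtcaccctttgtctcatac
TNFRSF9 promoter: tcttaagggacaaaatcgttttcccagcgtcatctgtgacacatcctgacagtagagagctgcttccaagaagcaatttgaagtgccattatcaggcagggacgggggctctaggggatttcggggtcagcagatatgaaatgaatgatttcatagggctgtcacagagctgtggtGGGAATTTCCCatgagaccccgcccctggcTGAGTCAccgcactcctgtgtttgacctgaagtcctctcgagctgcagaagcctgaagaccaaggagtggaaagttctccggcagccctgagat
TNFRSF14 promoter: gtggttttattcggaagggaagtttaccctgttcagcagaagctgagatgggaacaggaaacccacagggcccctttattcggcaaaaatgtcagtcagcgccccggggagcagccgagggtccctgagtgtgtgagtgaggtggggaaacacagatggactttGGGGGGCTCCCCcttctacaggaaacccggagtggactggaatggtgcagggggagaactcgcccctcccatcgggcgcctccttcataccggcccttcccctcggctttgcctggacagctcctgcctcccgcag
The motifs were the AP-1 site TGANTCA, the NF-kB site and the p53 consensus decamer, each searched on both strands. Of 35116 RefSeq promoter windows, 7.71% held an AP-1 match, 11.3% an NF-kB match and 6.63% a match to the p53 decamer. The TNFSF9 window held no match. The TNFSF15 window held an AP-1 match 120 bases and a p53 decamer 175 bases before the start. The TNFRSF9 window held an AP-1 match 44 bases before the start and a pair of overlapping NF-kB matches 74 and 73 bases before it. The TNFRSF14 window held 3 overlapping NF-kB matches that start 86, 85 and 84 bases before the start. Windows of 13 of the 23 members were analysed here. Of the 13, 2 held an AP-1 match, 5 an NF-kB match and 3 a p53 decamer. Windows of TNFRSF10A, TNFRSF10B, TNFRSF10C, TNFRSF10D and TNFRSF11B were not among them, and the counts say nothing about these receptors. A match is a description of the letters in the window and does not show that a factor binds there.

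Of the 5 receptors with a death domain, TNFRSF10B and TNFRSF10A rose in sip53, TNFRSF10A also rose in siGYS1, and TNFRSF1A, TNFRSF21 and TNFRSF25 passed in no comparison. TNFRSF10B (ENSG00000120889, chr8:23020133-23069179, GRCh38), the TRAIL receptor DR5 and known in many cells as a gene that p53 can activate, had 139 and 122 TPM in siGYS1, 338 and 315 TPM in sip53 and 126 and 105 TPM in NC. Both sip53 libraries stood far above all others, and siGYS1 overlapped NC. TNFRSF10B rose 3.03-fold in sip53 against NC (log2 fold change 1.60, SE 0.08, adjusted p = 8.78e-07), was lower in siGYS1 than in sip53 (-1.43, SE 0.08, adjusted p = 2.15e-06), and differed by 0.17 (SE 0.08, adjusted p = 0.177) in siGYS1 against NC.

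TNFRSF10A (ENSG00000104689, chr8:23190452-23225126, GRCh38), the TRAIL receptor DR4, was less abundant, with 15.5 and 12.2 TPM in siGYS1, 16.3 and 15.1 TPM in sip53 and 11.1 and 8.51 TPM in NC. Both knockdowns lay above NC and overlapped each other. It rose in sip53 against NC by 0.74 on the log2 scale (SE 0.12, adjusted p = 0.000683) and in siGYS1 against NC by 0.51 (SE 0.12, adjusted p = 0.0174). The call in siGYS1 was lost without NC replicate 2 (log2 0.40, adjusted p = 0.146) and on log2(TPM + 1) with limma (log2 0.46, adjusted p = 0.127).

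TNFRSF1A (ENSG00000067182, chr12:6328757-6342114, GRCh38), the main TNF receptor, had 85.35 and 74.2 TPM in siGYS1, 81.8 and 88.3 TPM in sip53 and 89.1 and 73.0 TPM in NC. All groups overlapped, and the log2 fold changes were -0.04 (SE 0.08, adjusted p = 0.771) in siGYS1 and 0.11 (SE 0.08, adjusted p = 0.306) in sip53 against NC. TNFRSF21, or DR6, also overlapped in all groups, with 24.2 and 21.0 TPM in siGYS1, 20.5 and 21.9 TPM in sip53 and 21.9 and 17.9 TPM in NC.

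The decoy receptors did not move together: TNFRSF11B and TNFRSF10C fell in sip53, TNFRSF10D rose in both knockdowns and TNFRSF6B passed in no comparison. TNFRSF11B (ENSG00000164761, chr8:118923557-118952200, GRCh38), osteoprotegerin, a secreted decoy for RANKL that also binds TRAIL, had 49.7 and 42.1 TPM in siGYS1, 22.2 and 23.95 TPM in sip53 and 54.6 and 50.6 TPM in NC. The sip53 libraries lay far below both other groups, and siGYS1 lay just below NC without overlap. TNFRSF11B fell by 1.12 on the log2 scale in sip53 against NC (SE 0.09, adjusted p = 1.25e-05) and was higher in siGYS1 than in sip53 (0.90, SE 0.09, adjusted p = 6.45e-05), while siGYS1 against NC gave -0.23 (SE 0.09, adjusted p = 0.102).

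TNFRSF10C (ENSG00000173535, chr8:23102590-23117437, GRCh38), a TRAIL decoy anchored in the membrane by a lipid, had 29.8 and 23.6 TPM in siGYS1, 14.4 and 16.2 TPM in sip53 and 27.0 and 20.8 TPM in NC. The sip53 libraries were lowest, and siGYS1 overlapped NC. It fell in sip53 against NC (-0.56, SE 0.13, adjusted p = 0.00649), a call lost without NC replicate 1 (log2 -0.42, adjusted p = 0.0567) or sip53 replicate 1 (log2 -0.47, adjusted p = 0.0732), and was higher in siGYS1 than in sip53 (0.73, SE 0.13, adjusted p = 0.00183).

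TNFRSF10D (ENSG00000173530, chr8:23135588-23164030, GRCh38), a TRAIL decoy with a truncated death domain, had 26.9 and 26.4 TPM in siGYS1, 27.0 and 25.55 TPM in sip53 and 21.8 and 21.4 TPM in NC. Both knockdowns lay above NC by a small step. Its log2 fold change was 0.29 in siGYS1 (SE 0.09, adjusted p = 0.049) and 0.35 in sip53 (SE 0.09, adjusted p = 0.0093). The call in siGYS1 was lost without NC replicate 1 (log2 0.25, adjusted p = 0.214), NC replicate 2 (log2 0.34, adjusted p = 0.155), siGYS1 replicate 2 (log2 0.27, adjusted p = 0.0602) or either sip53 replicate (log2 0.29, adjusted p = 0.106). The call in sip53 was lost without NC replicate 1 (log2 0.31, adjusted p = 0.0764) or sip53 replicate 1 (log2 0.31, adjusted p = 0.0947).

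TNFRSF6B (ENSG00000243509, chr20:63696651-63698684, GRCh38), a soluble decoy that binds FAS ligand, LIGHT and TL1A, had 1.15 and 1.60 TPM in siGYS1, 2.26 and 2.24 TPM in sip53 and 2.76 and 1.84 TPM in NC. The siGYS1 libraries were the lowest, with log2 fold changes of -0.70 against NC (SE 0.33, adjusted p = 0.158) and -0.77 against sip53 (SE 0.33, adjusted p = 0.0835) that did not pass. Its exons lie wholly within those of the readthrough locus RTEL1-TNFRSF6B, so its reads are uncertain.

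Set against each other, the death domain receptors of TRAIL (TNFRSF10A plus TNFRSF10B) had 2.73 and 2.69 times the TPM of the decoys TNFRSF10C plus TNFRSF10D in siGYS1, 8.55 and 7.91 times in sip53 and 2.80 and 2.69 times in NC. The sip53 libraries stood apart from the 4 others, which lay within a narrow band. TNFRSF10B was 65.9% and 66.3% of the TPM of the 4 receptors in siGYS1, 85.4% and 84.7% in sip53 and 67.7% and 67.5% in NC. With 2 libraries against 2 an exact two-sided permutation test of the ratio cannot give a p below 0.333, and the ratio is given as a description.

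**Figure D4:**
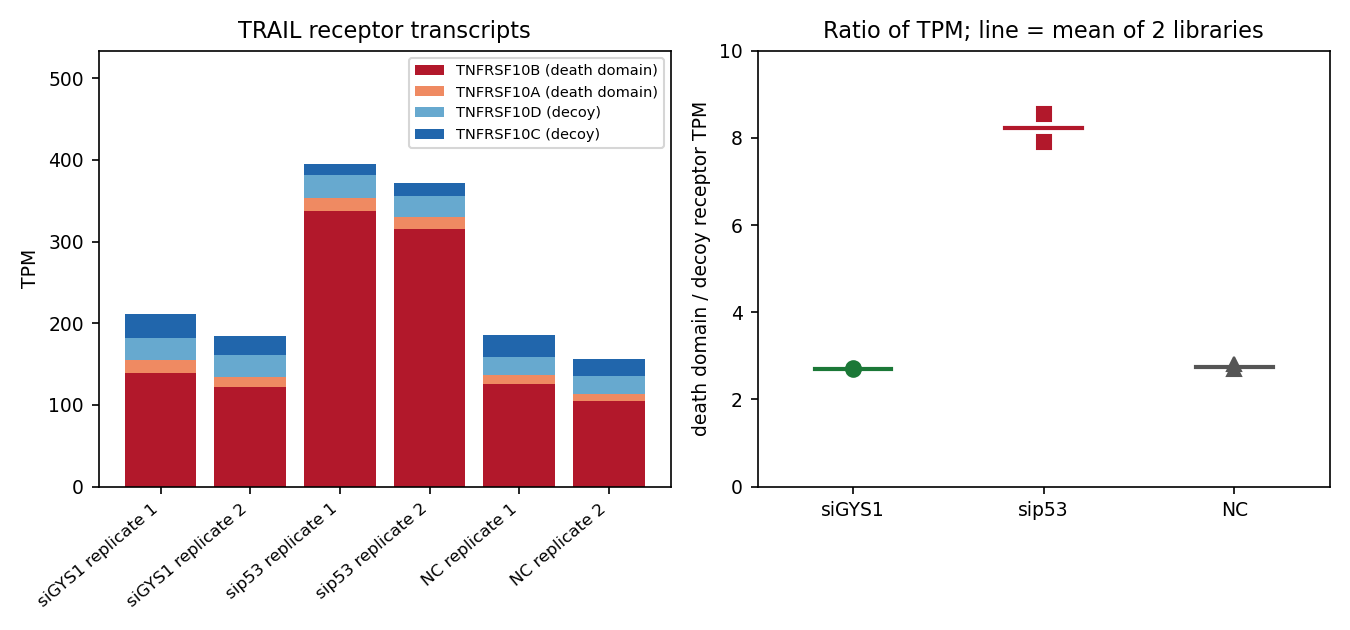
TRAIL receptor transcripts per library as stacked TPM (left), and the ratio of death domain to decoy receptor TPM with 1 symbol per library and a line at the group mean (right). The ratio lay between 2.69 and 2.80 in siGYS1 and NC and at 8.55 and 7.91 in sip53.

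The remaining TRAF-binding receptors changed by smaller steps. TNFRSF12A (ENSG00000006327, chr16:3018445-3022383, GRCh38) had 243 and 259 TPM in siGYS1, 276 and 296 TPM in sip53 and 227 and 241 TPM in NC. The sip53 libraries were the highest, and siGYS1 stood slightly above NC. It rose in sip53 against NC (log2 fold change 0.37, SE 0.10, adjusted p = 0.014), a call lost without NC replicate 1 (log2 0.28, adjusted p = 0.114), sip53 replicate 1 (log2 0.43, adjusted p = 0.0518) or sip53 replicate 2 (log2 0.31, adjusted p = 0.125), and siGYS1 against NC gave 0.11 (SE 0.10, adjusted p = 0.475).

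LTBR (ENSG00000111321, chr12:6375045-6391571, GRCh38), the lymphotoxin beta receptor that drives the non-canonical NF-kB pathway, had 85.4 and 85.8 TPM in siGYS1, 83.6 and 94.8 TPM in sip53 and 78.4 and 70.2 TPM in NC. Both knockdowns lay above NC and overlapped each other. It rose in sip53 against NC (0.37, SE 0.09, adjusted p = 0.00794), a call lost without NC replicate 2 (log2 0.34, adjusted p = 0.0599) or sip53 replicate 2 (log2 0.30, adjusted p = 0.0993), and gave 0.23 (SE 0.09, adjusted p = 0.1) in siGYS1 against NC. LTBR shares 422 exonic bases with SCNN1A on the opposite strand.

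CD40 (ENSG00000101017, chr20:46118272-46129863, GRCh38), a receptor known from B cells and from some carcinomas, had 34.7 and 34.0 TPM in siGYS1, 25.15 and 24.2 TPM in sip53 and 37.9 and 38.4 TPM in NC. The 3 groups did not overlap, with sip53 lowest. CD40 fell in sip53 against NC (-0.58, SE 0.09, adjusted p = 0.000733) and was higher in siGYS1 than in sip53 (0.44, SE 0.09, adjusted p = 0.00413), and siGYS1 against NC gave -0.13 (SE 0.09, adjusted p = 0.333).

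TNFRSF19 (ENSG00000127863, chr13:23570370-23676104, GRCh38), a receptor related to those of ectodysplasin, had 30.0 and 24.99 TPM in siGYS1, 17.1 and 15.0 TPM in sip53 and 22.9 and 17.6 TPM in NC. The siGYS1 libraries were highest and the sip53 libraries lowest. It rose in siGYS1 against NC (0.42, SE 0.12, adjusted p = 0.0308) and was higher in siGYS1 than in sip53 (0.69, SE 0.12, adjusted p = 0.00119), while sip53 against NC gave -0.26 (SE 0.12, adjusted p = 0.0887), which passed without NC replicate 2 (log2 -0.39, adjusted p = 0.0467) and without either siGYS1 replicate (log2 -0.24, adjusted p = 0.0444 and 0.0443). The call against NC was lost without NC replicate 2 (log2 0.30, adjusted p = 0.24) and without either sip53 replicate (log2 0.42, adjusted p = 0.0657 and 0.0659).

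TNFRSF18 and TNFRSF4, known as GITR and OX40 on T cells, were close to the lower limit. TNFRSF18 had 20 and 14 reads in siGYS1, 25 and 29 reads in sip53 and 26 and 41 reads in NC, with siGYS1 lowest and no call. TNFRSF4 had 3 and 4 reads in siGYS1, 11 and 11 reads in sip53 and 6 and 10 reads in NC, and it entered the test only through the sip53 libraries. Its lower value in siGYS1 than in sip53 (log2 fold change -1.64, SE 0.54) is therefore a description.

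Of the 10 members below 0.5 TPM, 5 passed the filter on low counts and 5 did not (TNFRSF17, TNFRSF8, TNFSF4, TNFSF18 and TNFSF8). TNFRSF11A, the receptor RANK, had 15 and 16 reads in siGYS1, 42 and 39 reads in sip53 and 8 and 9 reads in NC, and it rose in sip53 against NC (log2 fold change 2.33, SE 0.31, adjusted p = 0.000225). TNFSF14, or LIGHT, the ligand of TNFRSF14 and LTBR, had 3 and 7 reads in siGYS1, 23 and 18 reads in sip53 and 8 and 3 reads in NC. It passed the filter only through the sip53 libraries, where it was highest, and no test of it is given. TNFRSF1B, the second TNF receptor, had 0 and 2 reads in siGYS1, 11 and 13 reads in sip53 and 0 and 1 read in NC, too few for a fold, and it too passed the filter only through sip53. TNFSF13B, the B cell survival factor BAFF, had 15 and 8 reads in siGYS1, 5 and 1 reads in sip53 and 17 and 11 reads in NC. Its receptor TNFRSF13C had 16 and 7 reads in siGYS1, 7 and 6 reads in sip53 and 23 and 16 reads in NC. Both passed the filter only with the NC libraries, and no test of them is given. The calls of members below 0.5 TPM are not in the counts of the 23.

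Other genes of the pathway were taken from 6 lists. Of the superfamily genes with other names, 3 of 11 could be tested, and 2 rose in siGYS1 against NC, while 1 rose and 1 fell in sip53 against NC. Of all tested genes, 10.4% were called higher and 9.24% lower in siGYS1 against NC, and 23.4% and 26.5% in sip53 against NC. RELT, an orphan receptor, had 9.37 and 9.70 TPM in siGYS1, 13.6 and 13.5 TPM in sip53 and 6.38 and 6.42 TPM in NC, and rose by 0.56 in siGYS1 (SE 0.11, adjusted p = 0.00674) and by 1.11 in sip53 (SE 0.10, adjusted p = 2.74e-05). The death receptor FAS rose by 0.32 in siGYS1 (SE 0.09, adjusted p = 0.0282), a call lost without any one of 5 libraries, NC replicates 1 and 2, siGYS1 replicate 1 and sip53 replicates 1 and 2 (adjusted p between 0.0642 and 0.161), and the ligand EDA fell by 1.56 in sip53 (SE 0.18, adjusted p = 0.000106).

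Among 23 receptor adaptors and signalling proteins, 5 rose and 3 fell in siGYS1 against NC, and 8 rose and 2 fell in sip53 against NC, with median log2 fold changes of 0.08 and 0.17. For siGYS1 against NC 19.7% of all tested genes were called and for sip53 against NC 49.9%, so the total in sip53 is no higher than the background. By direction, 23.4% of all tested genes were called higher in sip53 against NC and 26.5% lower. More of the 23 rose there and fewer fell than these shares, which was not tested. FADD, which links death receptors to caspase-8, had 21.05 and 23.1 TPM in siGYS1, 45.35 and 44.5 TPM in sip53 and 39.4 and 40.2 TPM in NC. The siGYS1 libraries lay far below both other groups, and FADD fell in siGYS1 against NC by 0.85 (SE 0.11, adjusted p = 0.00097). In siGYS1 the ubiquitin ligase BIRC3 rose by 0.80 (SE 0.12, adjusted p = 0.00272) and SHARPIN, a part of the linear ubiquitin ligase, fell by 0.57 (SE 0.11, adjusted p = 0.00634). In sip53 the kinase MAP3K5 fell by 1.31 (SE 0.12, adjusted p = 2.76e-05), while RBCK1, another part of the linear ubiquitin ligase, rose by 0.99 (SE 0.09, adjusted p = 2.88e-05) and BIRC2 rose by 0.72 (SE 0.09, adjusted p = 0.00016). By edgeR BIRC3 also rose in sip53 against NC (0.57, adjusted p = 0.00399), where SHARPIN did not pass (0.04, adjusted p = 0.744). In siGYS1 against NC MAP3K5 also fell (-0.43, adjusted p = 0.0318), and RBCK1 (0.35, adjusted p = 0.0285) and BIRC2 (0.49, adjusted p = 0.00567) also rose.

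In the death branch with its inhibitors, 3 of 13 genes rose and 0 fell in siGYS1 against NC by edgeR, with 1 lower at an unadjusted p below 0.05 and 0 lower by DESeq2 and by limma; 3 rose and 5 fell in sip53 against NC, beside 19.7% of all genes called in siGYS1 and 49.9% in sip53. In siGYS1 XIAP, a caspase inhibitor, rose by 0.42 (SE 0.12, adjusted p = 0.0399), a call lost without NC replicate 1 (log2 0.45, adjusted p = 0.0898) or 2 (log2 0.39, adjusted p = 0.195), siGYS1 replicate 1 (log2 0.22, adjusted p = 0.162) or sip53 replicate 1 or 2 (log2 0.42, adjusted p = 0.0913 and 0.0915). In sip53 BAK1, which opens the mitochondrial membrane, rose by 0.82 (SE 0.09, adjusted p = 8.51e-05), CFLAR, the inhibitor of caspase-8, rose by 0.70 (SE 0.10, adjusted p = 0.000339), and CASP10 fell by 0.74 (SE 0.12, adjusted p = 0.000606).

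Among 13 NF-kB subunits and feedback genes, 2 rose and 0 fell in siGYS1 against NC by edgeR. Of all tested genes 10.4% were called higher and 9.24% lower in that comparison. Of the 13, 0 were lower there at an unadjusted p below 0.05, by DESeq2 and by limma. In sip53 against NC 7 rose and 2 fell, beside 23.4% of all genes called higher and 26.5% lower there. TNFAIP3, the feedback inhibitor A20, had 23.7 and 20.15 TPM in siGYS1, 44.55 and 42.8 TPM in sip53 and 14.3 and 12.0 TPM in NC. The groups did not overlap, and TNFAIP3 rose by 0.69 in siGYS1 (SE 0.10, adjusted p = 0.0022) and by 1.79 in sip53 (SE 0.10, adjusted p = 1.39e-06). OTULIN, which removes linear ubiquitin, rose by 0.39 in siGYS1 (SE 0.11, adjusted p = 0.0407), a call lost without any one of 5 libraries, NC replicates 1 and 2, siGYS1 replicate 1 and sip53 replicates 1 and 2 (adjusted p between 0.0718 and 0.236). In sip53 OTULIN was lower than in NC (-0.50, SE 0.12, adjusted p = 0.00633), the deubiquitinase CYLD rose by 1.00 (SE 0.12, adjusted p = 0.000147) and TNIP2 fell by 0.65 (SE 0.09, adjusted p = 0.000394).

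Of 11 tested genes known to be induced by TNF, 4 rose and 1 fell in siGYS1 against NC, and 7 rose and 1 fell in sip53 against NC, with medians of 0.18 and 0.70, beside 19.7% and 49.9% of all genes called in these comparisons and medians of -0.01 and -0.03. The chemokine CXCL8 had 812 and 712 TPM in siGYS1, 3273 and 3036 TPM in sip53 and 381 and 338 TPM in NC. The groups did not overlap, and CXCL8 rose by 1.08 in siGYS1 (SE 0.08, adjusted p = 6.41e-05) and by 3.22 in sip53 (SE 0.09, adjusted p = 5.02e-08). CCL20, another chemokine, rose by 1.31 in siGYS1 (SE 0.08, adjusted p = 3.46e-05) and by 1.68 in sip53 (SE 0.08, adjusted p = 6.95e-07). The mitochondrial dismutase SOD2 rose by 1.03 in siGYS1 (SE 0.10, adjusted p = 0.000263) and by 1.85 in sip53 (SE 0.11, adjusted p = 1.34e-06). TNFAIP6 rose by 2.72 in sip53 (SE 0.36, adjusted p = 0.000233).

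Of 4 analysed sheddases and their helpers, which release ligands and receptors from the cell surface, 0 passed in siGYS1 against NC by edgeR, also at an unadjusted p below 0.05, by DESeq2 and by limma. In sip53 against NC 2 rose and 1 fell, beside 49.9% of all genes called. ADAM10 had 328 and 208 TPM in siGYS1, 91.0 and 72.6 TPM in sip53 and 225 and 173 TPM in NC. ADAM17, the TNF converting enzyme, had 27.4 and 22.1 TPM in siGYS1, 44.3 and 41.2 TPM in sip53 and 24.3 and 18.5 TPM in NC. The pair went opposite ways in sip53: ADAM10 fell by 1.30 (SE 0.11, adjusted p = 1.34e-05) and ADAM17 rose by 1.08 (SE 0.11, adjusted p = 4.65e-05). RHBDF1, a helper of ADAM17, rose by 0.28 in sip53 (SE 0.10, adjusted p = 0.0388), a call lost without any one of the NC and sip53 replicates (adjusted p between 0.0763 and 0.22).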

How the data were processed

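RNA was sequenced from 6 libraries of TOV21G cells, 2 in each of the groups siGYS1, sip53 and NC, taken from the sample titles. The labels' protocol describes poly(A) enrichment in general terms. The table deposited by the authors holds, per the file headers, read counts and TPM per gene and library. The deposited read counts are estimated counts, since 16.8% to 18.1% of them per library are not whole, and were rounded. The TPM are the authors' own. The submitters' processing notes name cutadapt, DESeq2, edgeR, FastQC, featureCounts, HISAT2, HTSeq, Salmon, STAR, TopHat and Trimmomatic with no version or role; which tool made the table, the build and whether counting used strand were not given in the sources used here. Such a choice bears on genes that share exons. Of the table's columns, 24 were not used.

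Counts were tested with edgeR 4.0.16 (R 4.3.3): filterByExpr with a minimum count of 10, which kept 13235 genes and removed 3675, TMM scaling, and a quasi-likelihood test with 1 term per group over all 6 libraries, leaving 3 residual degrees of freedom. SE was computed from the log2 fold change and the F statistic, and intervals use the t distribution. Alternatives were RLE factors, DESeq2 1.42.0, no filter, a filter at a mean TPM of 0.5, only the compared groups, limma 3.58.1 on log2(TPM + 1) and log2(TPM + 0.1), each library left out, and a replicate block. Values are mean levels or TPM and reads per library, with n = 2 per group. Genes named are all members at or above 0.5 TPM and, per list and comparison with NC, up to 3 genes with the largest absolute log2 fold change among those that passed, except a few that are not reported here; TNFRSF11A, TNFSF14, TNFRSF1B, TNFSF13B and TNFRSF13C are named in addition. Members and lists were chosen with earlier results of these data known. Locations and shared exons are from GENCODE 29 (GRCh38), where 16830 of 16910 identifiers matched.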

Additional observations from a re-analysis of the deposited data

How the results depend on the processing

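Over 72 member results (23 genes and the readthrough locus, 3 comparisons) and 14 settings, 892 values kept their direction and side of the threshold, 60 no longer passed, 22 passed that had not, and 34 changed sign. Of called members, 2 of 7 in siGYS1 against NC, 8 of 13 in sip53 against NC and 8 of 11 in siGYS1 against sip53 passed in every setting. Of 36 results for other genes, 28 did. TNFSF15 is among the 8 in both comparisons with sip53, TNFRSF4 is among the 11, and TNFRSF1B is among the 28. These genes were let in only through the sip53 libraries, so their passing is no support.

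The count of members in siGYS1 against NC was 2 with only these groups fitted, 4 and 4 with limma on TPM, and 2 to 7 with 1 library left out; it was 9 to 15 in sip53 against NC and 8 to 11 in siGYS1 against sip53. Genes changed in siGYS1 against NC numbered 2602 (1379 higher, 1223 lower), 1512 with only these groups, 1227 and 1214 with limma on log2(TPM + 1) and log2(TPM + 0.1), 2197 with DESeq2 (1398 higher, 799 lower), and 927 (without NC replicate 2) to 4267 (without siGYS1 replicate 2) with 1 library left out. In sip53 against NC they numbered 6605, and 4284 (without sip53 replicate 1) to 7589; in siGYS1 against sip53 5745, and 3445 (without sip53 replicate 1) to 6359. Fits with fewer libraries or groups have fewer degrees of freedom, and among them the counts both fell and rose. Why the counts moved was not tested.

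Same-numbered replicates deviated together (r over 11187 genes 0.59 for siGYS1 with NC, 0.12 for sip53 with NC, 0.27 for siGYS1 with sip53), but the labels tie them to no shared culture or day. With the replicate block 4662 genes and 10 members were called in siGYS1 against NC, 7890 and 15 in sip53 against NC, and 7202 and 13 in siGYS1 against sip53. Members called with the block that are not called above were TNFSF13 (adjusted p = 0.0146), TNFRSF11B (0.0322) and LTBR (0.0262) in siGYS1 against NC, TNFSF13 (0.0119) and TNFRSF19 (0.00826) in sip53 against NC, and TNFRSF10A (0.0344) and TNFRSF12A (0.00572) in siGYS1 against sip53; no call was lost with it.

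Values that changed sign were small except for the readthrough locus. In siGYS1 against NC these were TNFSF15 (-0.34 to 0.43 with 1 library left out), TNFSF10 (-0.46 to 0.01), TNFRSF25 (0.03 and 0.03 with limma, -0.36 to 0.21 with 1 library left out) and TNFSF12-TNFSF13 (0.13 and 1.06 with limma, -1.21 to 7.34). In sip53 against NC these were TNFRSF6B (-0.01 and -0.00 with limma, -0.15 to 0.33 with 1 library left out), TNFRSF18 (-0.50 to 0.15) and TNFSF12-TNFSF13 (0.00 and 0.88 with limma, -1.42 to 7.12). In siGYS1 against sip53 these were TNFSF13 (0.12 and 0.13 with limma, -0.15 to 0.11 with 1 library left out), TNFSF12 (-0.02 to 0.07), TNFRSF10D (0.02 and 0.02 with limma), TNFRSF21 (-0.00 with RLE and DESeq2, -0.06 to 0.06 with 1 library left out), TNFRSF14 (0.03 and 0.03 with limma, -0.16 to 0.08) and TNFSF12-TNFSF13 (-0.68 to 0.77). Without NC replicate 2 the readthrough locus passed, with 0 reads left in NC. One library left out also decided calls of members with many reads, such as TNFRSF12A and LTBR.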
